A study of Mus musculus with 15 samples.

Results

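The signal regulatory protein (SIRP) genes Sirpa, Sirpb1a, Sirpb1b and Sirpb1c and the gene of the SIRPA ligand, Cd47, were followed in bulk sequencing of total RNA from mouse bone marrow. The 5 genes were found by their symbols among 38315 genes of one table of normalized counts. These are estimated read counts divided by a size factor per library. The table held 15 libraries: 7 of marrow from acute myeloid leukaemia (AML), genotype NUP98NSD1/FLT3ITD, 4 of wild-type whole marrow and 4 of wild-type lineage-negative marrow. NUP98-NSD1 is a fusion of the genes of a nuclear pore protein and an enzyme that methylates histones. FLT3-ITD is an activating duplication within the cytokine receptor FLT3. Lineage-negative marrow lacks most cells that carry antigens of mature blood cells. The labels give no age, no treatment and no promoter or cell type that drives the leukaemic alleles, and they do not say how the lineage depletion was done. They number the samples within each group without saying that each came from its own animal, so p-values measure the spread between these samples, which may be technical. The genes were chosen by measured values, since Sirpb1c and Sirpb1a had among the largest differences between AML and lineage-negative marrow, and values of that comparison are a description, with no test. The other comparisons share libraries with it, so their p-values are not independent of the choice. Means stand with ± 1 standard deviation (SD) over the 7 AML, 4 whole and 4 lineage-negative libraries.

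SIRPA is an inhibitory receptor of myeloid cells. When CD47 on a neighbouring cell binds it, tyrosines in its cytoplasmic tail recruit the phosphatases SHP-1 and SHP-2, and engulfment of the neighbour is restrained, which is why CD47 is known as a signal against phagocytosis on blood cells and leukaemic cells. SIRP-beta receptors have a similar outer part but a short tail, signal through the activating adaptor TYROBP (DAP12), and are not known to bind CD47.

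The SIRP-beta genes lie next to each other on the minus strand of chromosome 3. In the coordinates of the table, Sirpb1a (ENSMUSG00000095788) spans 15436713 to 15491580, Sirpb1b (ENSMUSG00000095028) 15560811 to 15640125 and Sirpb1c (ENSMUSG00000074677) 15849309 to 15902692. Sirpa (ENSMUSG00000037902) lies on chromosome 2, 129434755 to 129474148, and Cd47 (ENSMUSG00000055447) on chromosome 16, 49620896 to 49735373, both on the plus strand. The 5 are protein-coding genes. The submitters' processing notes name the build mm10, yet 861 of 38066 shared gene identifiers start at the same base as in a GRCm38 annotation, so the build of these coordinates is not settled.

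The SIRP-beta genes are close copies, which bears on every value given for one of them. In GRCm38 transcript models, 40.4% of the distinct 50-base words of Sirpb1a, 58.0% of those of Sirpb1b and 51.9% of those of Sirpb1c also occur in transcripts of another gene, mostly of one another. For 100-base words the shares were 23.0%, 39.3% and 32.1%. No word of either length was shared by Sirpa, and 0.722% of the 50-base words of Cd47 were. The read length and the handling of reads that fit several genes are not given in the sources used here. In lineage-negative replicate 1 a single read came to about 0.908 normalized counts. Sirpb1b (14.2) and Sirpb1c (9.36) were not whole multiples of it there, but the sum of the 3 genes (25.4) was. The separate values are therefore estimates, and the division of reads among Sirpb1a, Sirpb1b and Sirpb1c is uncertain.

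The likeness extends upstream of the genes. The stretches before the annotated gene bodies are shown from RefSeq (GRCm38.p6, minus strand, 5′ to 3′) because all 3 copies were near 0 in lineage-negative marrow and well measured in the other groups. Capitals mark the longest run shared by all 3, 26 bases, and the positions are chr3:15426523-15426677, chr3:15575068-15575315 and chr3:15848531-15848737 in the order printed.
Sirpb1a: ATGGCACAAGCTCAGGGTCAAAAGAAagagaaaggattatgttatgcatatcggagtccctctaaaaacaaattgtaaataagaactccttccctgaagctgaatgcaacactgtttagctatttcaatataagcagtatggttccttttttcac
Sirpb1b: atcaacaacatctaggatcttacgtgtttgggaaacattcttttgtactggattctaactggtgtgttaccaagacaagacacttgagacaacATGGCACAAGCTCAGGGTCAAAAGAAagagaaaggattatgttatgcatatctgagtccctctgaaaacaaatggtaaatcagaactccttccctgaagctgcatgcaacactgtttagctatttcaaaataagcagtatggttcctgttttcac
Sirpb1c: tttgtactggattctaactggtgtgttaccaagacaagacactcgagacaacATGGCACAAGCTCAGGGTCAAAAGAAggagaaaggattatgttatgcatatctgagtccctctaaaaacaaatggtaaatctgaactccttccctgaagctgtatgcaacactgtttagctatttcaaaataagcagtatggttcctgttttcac

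The 300-base promoter windows of these genes, 250 bases before to 50 after the start, were aligned locally. Sirpb1b and Sirpb1c were identical at 254 of 259 aligned bases (98.1%), Sirpb1a and Sirpb1c at 237 of 248 (95.6%), and Sirpb1a and Sirpb1b at 198 of 207 (95.7%). The letters AGGAAG, the core bound by ETS factors such as PU.1, were searched on both strands after the sequences had been seen. They occurred 1 time in each of the 3 windows and in neither of the 2 Cd47 windows. In Sirpb1a, Sirpb1b and Sirpb1c the letters began at base 196, 289 and 248 of the window. There the letters lay past the stretches printed above, within the annotated gene bodies. They also occurred 1 time in the window of the neighbouring gene Gm5150, which was 87.2% to 88.1% identical to those 3, and 35.4% of all 32851 promoter windows of that length hold them. TTGCNNAA (C/EBP), TGTGGT (RUNX) and TATAAA were in no window of the SIRP-beta genes or Cd47, against 10.8%, 16.8% and 13.6% of all windows.

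Depth and scaling differed between the groups. Estimated depth was 20.3 to 35.1 M (mega) reads in AML, 20.3 to 28.1 M in lineage-negative marrow and 11.4 to 17.2 M in whole marrow. Against whole marrow, the 18941 genes tested had a median log2 difference of 0.67 in AML and 0.59 in lineage-negative marrow, or of −0.01 and −0.09 with TMM scaling, which trims extreme genes before libraries are matched. A relative difference below is the log2 difference minus that median. Where normalized counts of groups are said below to overlap or not, this is at the deposited scaling. The share of all genes without overlap is not given here. Divided by the TMM factors, AML and whole marrow overlapped for Sirpa and Cd47. Whole marrow, and to a lesser degree AML replicates 5 and 6, had reads over genes not known for expression in marrow, with a mean of 7.14 to 13.5 normalized counts per olfactory or vomeronasal receptor gene in whole marrow, 1.33 and 3.81 in those AML libraries and at most 0.746 elsewhere. Scaled to exonic length, this background came to 2.27% to 9.63% of the Sirpb1a value in whole marrow, 1.15% to 5.02% of Sirpb1c, 0.785% to 3.37% of Sirpb1b and at most 1.11% of Sirpa and Cd47. In lineage-negative marrow, where the SIRP-beta genes were near 0, it came to 12.8% to 33.7% of Sirpb1a, 2.68% to 33.4% of Sirpb1b and, in the 3 libraries above 0, 5.22% to 18.6% of Sirpb1c.

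**Figure D1:**
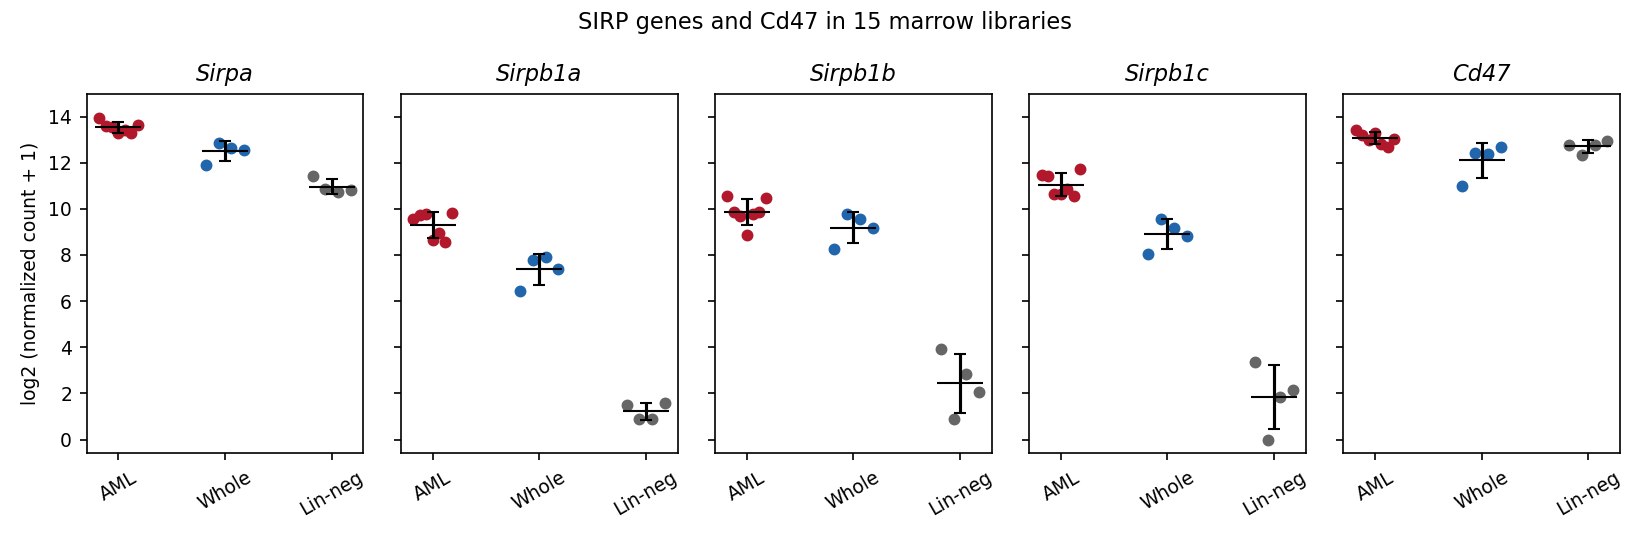
Level of each gene in each library, as log2 of the normalized count plus 1, in AML, whole marrow and lineage-negative marrow; points are libraries, and bars are means with standard deviations. The SIRP-beta genes are near 0 in lineage-negative marrow, Sirpb1a and Sirpb1c are higher in all 7 AML libraries than in any whole marrow library, and Cd47 in AML is above whole marrow and overlaps lineage-negative marrow.

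Sirpb1c and Sirpb1a were higher in AML than in whole marrow. Sirpb1c had 1514, 1842 and 3420 normalized counts in the lowest, median and highest AML library. Its values in whole marrow replicates 1 to 4 were 264, 759, 577 and 451. The ranges did not overlap, with AML higher in 7 of 7 libraries, and the means were 2232 ± 771 and 513 ± 209, a ratio of 4.35. The log2 difference of Sirpb1c was 2.15 (SE 0.44, limma adjusted p = 0.000361), or 1.48 relative to all genes. With TMM scaling it was 1.45. In bulk marrow, here and below, fewer cells of a type and less RNA per cell cannot be told apart.

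Sirpb1a gave a smaller signal with the same order of groups. Its lowest, median and highest AML values were 373, 761 and 912 normalized counts, against 85.5, 221, 241 and 167 in the 4 whole marrow libraries. Again no AML library overlapped whole marrow, and the means were 666 ± 236 and 179 ± 69.5, a ratio of 3.72. For Sirpb1a the log2 difference was 1.91 (SE 0.33, limma adjusted p = 7.98e-05), 1.23 relative to all genes and 1.21 with TMM scaling.

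Sirpb1b did not follow them. It had 463, 918 and 1524 normalized counts in the lowest, median and highest AML library and 307, 869, 757 and 567.6 in whole marrow, so the groups overlapped, and 5 of 7 AML libraries exceeded the highest of whole marrow. The means were 997 ± 364 and 624.8 ± 246. The log2 difference was 0.69 (SE 0.43, limma adjusted p = 0.17), which is 0.02 relative to all genes and −0.01 with TMM scaling. The SE comes from a fit of all 3 groups, which includes lineage-negative values near 0. With AML and whole marrow fitted alone it was 0.31 for Sirpb1b (limma adjusted p = 0.0647), still not called, and 0.29 for Sirpb1c. At the deposited scaling 3 of the 5 genes, Sirpb1c, Sirpb1a and Sirpa, were called higher, meaning that the adjusted p was under 0.05 and the size on the log2 scale at least 1, where 27.3% of all genes were called higher. With TMM scaling Sirpb1c and Sirpb1a were called, where 4.73% of all genes were.

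**Figure D2:**
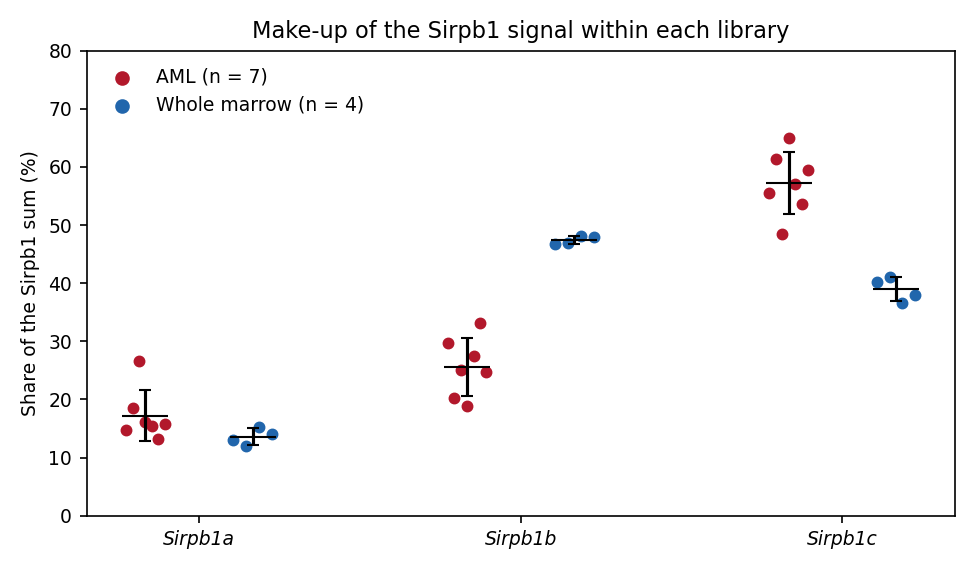
Share of the summed normalized counts of Sirpb1a, Sirpb1b and Sirpb1c that each gene contributed within a library, in percent, for AML and whole marrow; points are libraries, and bars are means with standard deviations. Sirpb1b gave 46.7% to 48.0% in whole marrow and 18.9% to 33.2% in AML, while Sirpb1c was the largest contributor in every AML library.

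The make-up of the SIRP-beta signal within a library does not depend on the scaling between libraries. In whole marrow replicates 1 to 4, Sirpb1b gave 46.7%, 47.0%, 48.0% and 47.9% of the summed counts of the 3 genes, a spread of 0.642 percentage points. In AML it gave 25.6% ± 5.05, from 18.9% in replicate 4 to 33.2% in replicate 6. The AML libraries were therefore all below whole marrow and varied more among themselves. Sirpb1c took 57.2% ± 5.39 of the sum in AML and 39.0% ± 2.00 in whole marrow. The share of Sirpb1a was 17.2% ± 4.42 and 13.6% ± 1.42, with overlapping ranges and with AML replicate 3 highest at 26.6%.

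As a log2 ratio of Sirpb1b to Sirpb1c, this was 0.28 ± 0.09 in whole marrow and −1.18 ± 0.39 in AML, a difference of −1.46. The ratio was below the whole marrow range in 7 of 7 AML libraries, and the exact two-sided permutation test over 330 splits gave p = 0.00606, the smallest it can give, or 0.0106 adjusted over the 7 ratios tested. Both values rest on an estimated division of reads between near-identical copies. Whether that division contributes to this difference was not tested. The ratio of Sirpb1a to Sirpb1c was −1.76 ± 0.41 in AML and −1.52 ± 0.22 in whole marrow, a difference of −0.24 with an exact p of 0.333 and an adjusted p of 0.467. Without AML replicate 3 that difference was −0.39, with an exact permutation test's adjusted p of 0.0267.

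Gm9733 and Gm5150 flank the SIRP-beta genes on the same strand and were chosen after their values had been seen. Their transcripts shared no 50-base word with another gene. Gm9733 had 374 ± 131 normalized counts in AML, 124 ± 44.4 in whole marrow and 3.24 ± 2.17 in lineage-negative marrow. Its log2 difference of AML against whole marrow was 1.57 (SE 0.36, limma adjusted p = 0.000861), with 6 of 7 AML libraries above the whole marrow range, but it was 0.88 with TMM scaling and not called there. Gm5150 had 318 ± 111, 237 ± 80.7 and 2.98 ± 4.14 in the same groups, and its log2 difference was 0.42 (limma adjusted p = 0.445). The noncoding Gm37468, inside the Sirpb1b gene on the other strand, had a mean of 17.7 normalized counts in AML, 7.98 in whole marrow and 1.16 in lineage-negative marrow.

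Sirpa, the inhibitory member, had the highest level of the SIRP genes. It had 9864, 11848 and 15733 normalized counts in the lowest, median and highest AML library, and 3798, 7516, 6467 and 6021 in whole marrow. No AML library overlapped whole marrow, and the means were 11945 ± 2029 and 5950 ± 1566, a ratio of 2.01. The log2 difference was 1.03 (SE 0.21, limma adjusted p = 0.000319), just past the threshold, and 0.36 relative to all genes. Sirpa was not called with TMM scaling, at 0.34, nor without AML replicate 1, at 0.96, nor without whole marrow replicate 1, at 0.83.

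Cd47, the ligand, had high values in each of the 3 groups. Its lowest, median and highest AML values were 6605, 8315 and 11104 normalized counts. Whole marrow had 2026, 5463, 5300 and 6475, and lineage-negative marrow 6967, 5109, 7054 and 7907. At the deposited scaling all AML libraries lay above whole marrow and 5 of 7 lay above all 8 normal libraries, so AML overlapped lineage-negative marrow. Against whole marrow the log2 difference was 0.95 (SE 0.26, limma adjusted p = 0.00371), short of the size threshold, and 0.28 relative to all genes. Whole marrow replicate 1, the lowest value, weighed on this: without it the log2 difference was 0.58. With TMM scaling of all libraries the log2 difference was 0.26 (limma adjusted p = 0.28). Between lineage-negative and whole marrow Cd47 differed by 0.60 (SE 0.29, limma adjusted p = 0.0823), or 0.01 relative to all genes.

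Lineage-negative marrow held nearly none of the SIRP-beta transcripts. Sirpb1a was at 1.82, 0.881, 0.881 and 1.96 normalized counts in replicates 1 to 4, which is 7 reads in all and at or under a floor of 3 reads in each library. Sirpb1b had 14.2, 0.881, 6.25 and 3.15, and Sirpb1c had 9.36, 0, 2.57 and 3.38. Replicate 1 was the highest of the group for Sirpb1b and Sirpb1c, and no lineage-negative library came near the whole marrow range. Sirpa stayed measurable, at 2751, 1872, 1700 and 1827.

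Against whole marrow, 4 of the 5 genes were lower in lineage-negative marrow, where 17.2% of all genes were called lower (24.8% with TMM scaling, which left the 4 calls as they were). The limma log2 differences were −7.07 for Sirpb1c (SE 0.49, adjusted p = 7.67e-09), −6.75 for Sirpb1b (SE 0.49, adjusted p = 9.96e-09), −6.17 for Sirpb1a (SE 0.37, adjusted p = 1.59e-09) and −1.53 for Sirpa (SE 0.23, adjusted p = 1.56e-05), with all 4 lineage-negative libraries below all whole marrow libraries. The first 3 of these rest on lineage-negative values near 0. The same values entered the comparison by which the genes were chosen, so these p-values are no independent support. As a ratio of means Sirpb1a was 129-fold lower than in whole marrow, with a 95% Poisson interval of 62.7 to 321 that covers counting error alone.

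In AML against lineage-negative marrow, the comparison that drew attention to these genes, 4 of the 5 met the rule for a higher call, as did 17.7% of all genes (17.6% with TMM scaling). That count follows from how the genes were chosen, and nothing is read from it. The log2 differences were 9.22 for Sirpb1c, 8.07 for Sirpb1a, 7.44 for Sirpb1b, 2.56 for Sirpa and 0.36 for Cd47. For Sirpb1a the ratio of means was 481, with a Poisson interval of 233 to 1196. Every AML library exceeded every lineage-negative library for the SIRP genes. At the deposited scaling none of the 8 normal libraries reached the lowest AML value of Sirpa, Sirpb1a or Sirpb1c.

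Markers of mature cells were summed in the same libraries. The summed normalized counts of 12 neutrophil markers were 2185 to 19412 in lineage-negative marrow, 459540 to 1216700 in whole marrow and 421080 to 1494700 in AML, so that AML and whole marrow overlapped and none of the 12 was called between them (2 lower with TMM scaling). The sum of 13 monocyte and macrophage markers was 58349 to 95589 in AML, 13376 to 29561 in whole marrow and 10753 to 17555 in lineage-negative marrow. Of these 13, 7 were called higher and 1 lower in AML than in whole marrow, and 2 and 1 with TMM scaling. The 4 dendritic cell markers summed to 1029 to 9152 in AML against 315 to 523 in whole marrow, and all 4 were called higher, 3 of them with TMM scaling. All 8 erythroid markers were called lower in AML, with sums of 309 to 22222 against 575970 to 1402800. Over all genes 27.3% were called higher and 11.3% lower, or 4.73% and 16% with TMM scaling. The part of these cell types in the SIRP values was not tested.

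The 6 stem and progenitor markers summed to 10681 to 15557 in lineage-negative marrow, 2932 to 5588 in AML and 1075 to 2128 in whole marrow, and the 4 neutrophil precursor markers to 109910 to 177840, 15712 to 87436 and 18664 to 42910. The 4 B cell markers summed to 10.6 to 149 in lineage-negative marrow, 175 to 4586 in AML and 2351 to 5191 in whole marrow. Sums over 4 T and NK cell markers were 1276 to 1860, 382 to 1714 and 442 to 918, and over 4 stroma and endothelium markers 2137 to 2924, 1151 to 2988 and 1175 to 2089, in that order. No marker of any list was at 0 in all libraries of a group.

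**Figure D3:**
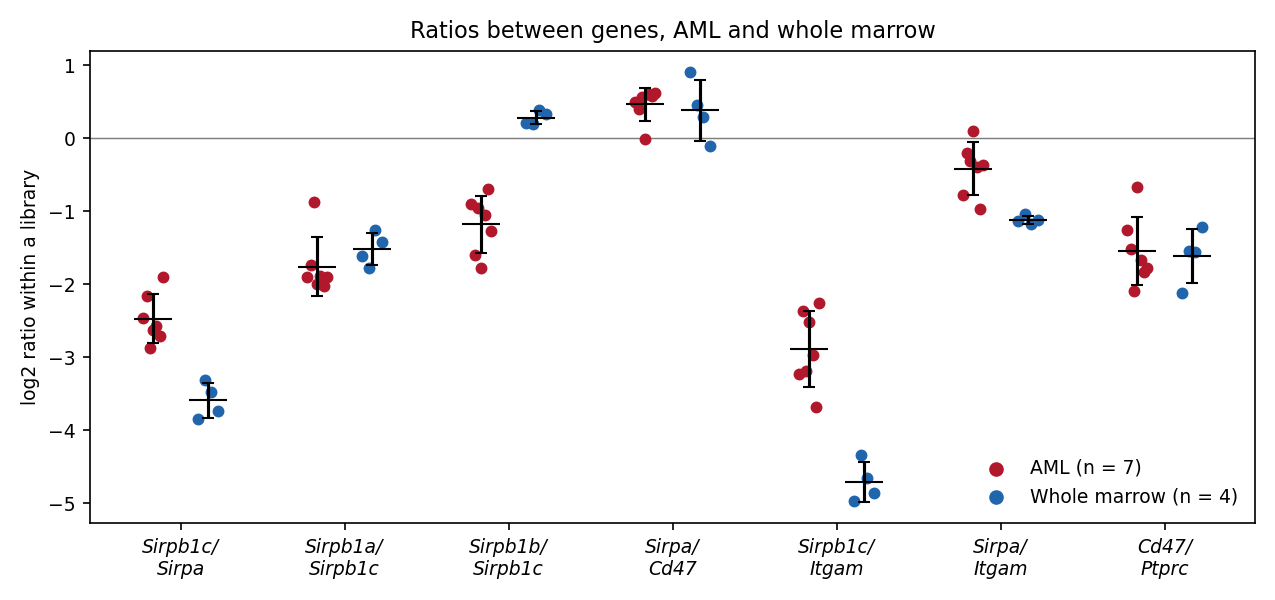
The 7 log2 ratios between genes within a library, in AML and whole marrow; points are libraries, and bars are means with standard deviations. AML and whole marrow do not overlap for Sirpb1c to Sirpa, Sirpb1b to Sirpb1c, Sirpb1c to Itgam and Sirpa to Itgam, and they overlap for the others.

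Ratios within a library compared genes free of the scaling. Of the SIRP-beta genes only Sirpb1c was set against Sirpa. The others differed: in AML against whole marrow the log2 difference was 1.91 for Sirpb1a and 0.69 for Sirpb1b, against 1.03 for Sirpa. The ratio of Sirpb1c to Sirpa therefore does not stand for all activating members. The log2 ratio of Sirpb1c to Sirpa was −2.47 ± 0.34 in AML and −3.59 ± 0.24 in whole marrow, a difference of 1.12. In lineage-negative marrow it ran from −10.9 to −8.05. Sirpb1c was at 0 to 9.36 normalized counts there, so these values lean on the pseudocount of 1. Itgam, which encodes CD11b, an integrin chain of neutrophils and monocytes, served as 1 possible denominator among myeloid genes. Relative to Itgam, Sirpb1c was higher in AML by 1.82 and Sirpa by 0.70 on the log2 scale, with ratios of −2.89 ± 0.53 and −0.42 ± 0.36 in AML against −4.71 ± 0.27 and −1.12 ± 0.06 in whole marrow. For each of these 3 ratios 7 of 7 AML values exceeded the highest of whole marrow, with an exact permutation p of 0.00606 and 0.0106 after adjustment. Sirpa relative to Itgam was highest in lineage-negative marrow, at 1.10 to 1.94, where Itgam itself was at 486 to 1287 normalized counts. In AML against whole marrow the relative difference was −0.34 for Itgam and 0.36 for Sirpa. It was 0.01 for Itgb2, another integrin chain, and 0.38 for Tyrobp. The ratios to Itgam thus depend on that denominator, and no other myeloid denominator was tested.

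The ratio of receptor to ligand was not distinguished between AML and whole marrow. Sirpa to Cd47 was 0.47 ± 0.22 in AML and 0.39 ± 0.42 in whole marrow, with an exact permutation p of 0.697. AML replicate 4 was low in its group, at −0.01, against 0.40 to 0.62 in the other AML libraries. In lineage-negative marrow the ratio was −2.11 to −1.34, below all 11 other libraries. Cd47 relative to Ptprc, the leukocyte antigen CD45, was −1.54 ± 0.46 in AML and −1.61 ± 0.37 in whole marrow, with an exact permutation p of 0.842.

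Levels of different genes were compared as normalized counts per kb of exon. In AML they were 2432 ± 413 for Sirpa, 1381 ± 253 for Cd47, 606 ± 209 for Sirpb1c, 347 ± 126 for Sirpb1b and 291 ± 103 for Sirpb1a. Within AML libraries Sirpa exceeded Cd47, Cd47 exceeded Sirpb1c and Sirpb1c exceeded Sirpb1b in 7 of 7, but Sirpb1b exceeded Sirpb1a in 4 of 7, so the last pair had no fixed order. In whole marrow the values were 1212 ± 319 for Sirpa, 767 ± 308 for Cd47, 217 ± 85.5 for Sirpb1b, 139 ± 56.6 for Sirpb1c and 78.0 ± 30.3 for Sirpb1a, in this order in each of the 4 libraries. In lineage-negative marrow Cd47, at 1077 ± 188, exceeded Sirpa, at 415 ± 98.0, in 4 of 4 libraries.

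**Figure D4:**
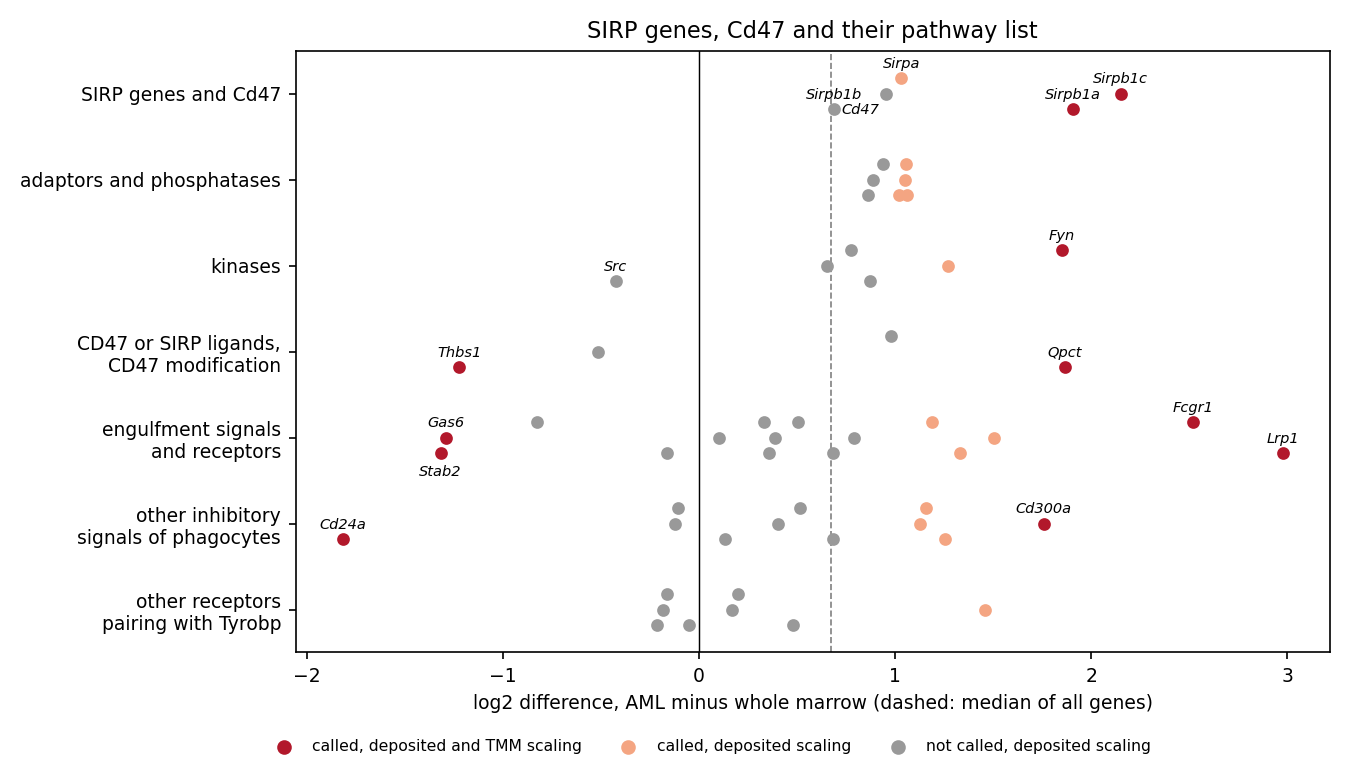
Log2 difference of AML minus whole marrow for the 5 genes and for the tested genes of the pathway list, by class; each point is a gene, the dashed line is the median of all genes (0.67), and colours give the calls. Of the 52 list genes 31 were not called, while Sirpb1a, Sirpb1c, Fyn, Qpct, Lrp1, Fcgr1 and Cd300a lie to its right and were called under both scalings.

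A list of 55 genes that act with SIRPA, SIRP-beta or CD47 or in other engulfment signals gave 52 tested genes. Of these 17 were called higher and 4 lower in AML than in whole marrow (limma), where 27.3% of all genes were higher and 11.3% lower. Without whole marrow replicate 1 the higher count was 11, and the lower count was 2 without whole marrow replicate 3 and 1 without replicate 4. The median log2 difference of the list was 0.67, and that of all genes was also 0.67. With TMM scaling 5 were higher and 5 lower, where 4.73% and 16% of all genes were. Between lineage-negative and whole marrow 1 was higher and 32 lower, where 33.1% and 17.2% of all genes were, and the list median was −1.76 against 0.59 over all genes. With TMM scaling 1 was higher and 42 lower there, where 11% and 24.8% of all genes were. In AML against lineage-negative marrow, given as a description, 43 met the rule for a higher call and 1 for a lower one, where 17.7% and 12.5% of all genes did. The counts were also 43 and 1 with TMM scaling, where 17.6% and 12.4% did.

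The shares over all genes given above are the background for each class that follows. Among 7 tested adaptors and phosphatases, 4 were called higher and none with TMM scaling. Ptpn6, which encodes SHP-1, averaged 10649 ± 1549 normalized counts in AML and 5134 ± 978 in whole marrow, with no overlap and a relative difference of 0.39. Tyrobp, the adaptor of SIRP-beta, had 11888 ± 1800 in AML, 5962 ± 2143 in whole marrow and 1528 ± 259 in lineage-negative marrow, and its relative difference of AML against whole marrow was 0.38. Ptpn11, which encodes SHP-2, had 3419 ± 189, 1916 ± 538 and 3431 ± 581 in the same order and was not called. The relative difference of Skap2, a SIRPA-binding adaptor of macrophages, was 0.35.

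Of 6 tyrosine kinases 2, Fyn and Lyn, were called higher; with TMM scaling Fyn was called higher and Src lower. Fyn had 695 to 1647 normalized counts in AML and 216 to 403 in whole marrow, without overlap, a log2 difference of 1.85 (limma adjusted p = 4.7e-06) and a relative one of 1.18. Syk, which binds phosphorylated TYROBP, was not called, with a relative difference of −0.02.

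Ligands and enzymes that modify CD47 gave 1 higher and 1 lower call among 4 tested genes. Thbs1 encodes thrombospondin-1, a secreted ligand of CD47. It had 470 to 1647 normalized counts in AML and 1081 to 3871 in whole marrow and was lower by −1.22 on the log2 scale (limma adjusted p = 0.00626). Qpctl, the enzyme that forms the pyroglutamate of CD47 bound by SIRPA, had 313 ± 63.6 in AML and 161 ± 42.5 in whole marrow, a log2 difference of 0.98, below the threshold. Its secreted relative Qpct was higher by 1.87 (limma adjusted p = 1.8e-05), with 96.3 to 202 against 28.7 to 56.3 normalized counts and no overlap.

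Engulfment signals and receptors had 5 higher and 2 lower calls among 16, and 2 higher and 2 lower with TMM scaling. Lrp1, a receptor for calreticulin, had 5419 to 19218 normalized counts in AML against 1028 to 2389 in whole marrow, a log2 difference of 2.98 (limma adjusted p = 2.78e-06) and the largest on the list. Calr, which encodes calreticulin, was not called, at 11509 ± 3229 in AML and 8047 ± 2003 in whole marrow, and was highest in lineage-negative marrow at 31615 ± 4209. Slamf7, a homophilic engulfment receptor, had 409 to 3223 normalized counts in AML and 253 to 404 in whole marrow and was called (limma adjusted p = 0.00685) but not with TMM scaling, and Itgam was not called, at 0.33 (SE 0.29).

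Other inhibitory signals of phagocytes gave 4 higher and 1 lower call among 11, and 1 in each direction with TMM scaling. Cd24a, a ligand for inhibitory Siglec receptors and a marker of several maturing blood cells, was lower by −1.82 (limma adjusted p = 6.7e-06), with 6094 to 13202 normalized counts in AML against 19025 to 34266 in whole marrow. Cd300a, an inhibitory lipid receptor, was higher by 1.76 (limma adjusted p = 1.16e-05), with 1617 to 4542 against 676 to 1339. Of 8 other receptors that pair with TYROBP, 1 was called higher (Trem2, named after its value was seen, at 1.46, and not called with TMM scaling), and the median of the class was 0.06. Sirpb1a and Sirpb1c, which were chosen by measured values, had larger differences than each of these 8 receptors. Sirpb1b, at 0.69, lay below Trem2.

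The genes with the most similar pattern were sought among 10288 protein-coding genes by Pearson's r of log2 values over the 15 libraries, which share depth and scaling, so r is a description. Closest to Sirpb1c were Tlr13 (0.995), the lysozyme gene Lyz2 (0.992) and Pirb (0.990). Sirpb1a was closest to Cybb (0.991), Lyz2 (0.990) and Gm9733 (0.989), and Sirpb1b to Mcemp1 (0.994), 6430548M08Rik (0.993) and the neutrophil antigen Cd177 (0.992). For Sirpa they were Lrrc25 (0.995), Sema4a (0.992) and Nfam1 (0.989), and for Cd47 Ikzf1 (0.969), Csnk1g1 (0.966) and Zbtb33 (0.966). Between Cd47 and the SIRP genes r was 0.140 to 0.402.

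With the group means subtracted, r describes how libraries of one group vary. Sirpb1b and Sirpb1c still had r = 0.899, and Sirpb1a had 0.627 with Sirpb1c and 0.561 with Sirpb1b. These values include the lineage-negative libraries, in which the SIRP-beta genes were near 0; over the 11 other libraries, a choice made after seeing the data, the same pairs had r = 0.843, 0.812 and 0.749. Over all 15 libraries the closest genes were then Arhgef37 (0.930) and Gas7 (0.925) for Sirpb1c, ahead of Sirpb1b itself, Marchf1 (0.942), Zfp74 (0.906) and Rcan1 (0.904) for Sirpb1a, and S100a9 (0.930), Pilra (0.930) and Dgkg (0.929) for Sirpb1b. Sirpa was closest to Nfam1 (0.967), Sema4a (0.967) and Acox3 (0.953), and Cd47 to Tpp1 (0.962), Ube4a (0.961) and Naa15 (0.961).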

How the data were processed

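Per the labels, TRIzol served for extraction and a TruSeq Stranded Total RNA kit for the libraries. The values are a normalized signal that the authors deposited, in which estimated counts had been scaled by a poscounts size factor from DESeq2, as the table's name says. STAR, Partek and DESeq2 and the build mm10 are named in the submitters' processing notes. Versions and the strand used for counting are not given in the sources used here. Of low values, 80.8% to 86.7% per library were whole multiples of one step, within 0.02 of a step, so whole reads were not recovered and count tests were not run. The step gave the estimated depth and the floor of 3 reads. Depths and floors cover counting error only.

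Genes with at least 10 normalized counts in at least 4 samples were kept (18941). Values entered as log2 with a pseudocount of 1, so fold changes of low genes are understated. One limma fit (limma 3.58.1, R 4.3.3) of 3 group means with a mean-variance trend gave two-sided tests, adjusted by the Benjamini-Hochberg method over all genes kept, and was tested on simulated data. The members and lists were chosen with earlier results of these data known. Named genes were the members, rows between the SIRP-beta genes, 12 fixed list genes (1 is not reported here), called list genes whose groups did not overlap (up to 4 in each direction) and, for each member, the 3 genes of highest correlation with a mean of at least 100. Exonic lengths and transcripts came from GENCODE M21, and promoters from RefSeq, which held rows for 4 of the 5 members. The gene length column of the table was not used for levels.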

Additional observations from a re-analysis of the deposited data

Results flagged for a closer look

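Among 83 groups of values examined, 8 had one library separated from the rest by more than Dixon's 95% critical value, where chance flags about 1 in 20. Sirpa in lineage-negative replicate 1 was 2751 normalized counts, against 1700 to 1872 in the other 3, and Itgam in the same library was 1287 against 486 to 568.3. That library also had the highest Sirpb1b and Sirpb1c of its group.

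In AML replicate 3 the log2 ratio of Sirpb1a to Sirpb1c was −0.87, against −2.02 to −1.73 in the other AML libraries, and Slamf7 was 3223 normalized counts against 409 to 1246. The log2 ratio of Sirpa to Cd47 was −0.00995 in AML replicate 4, against 0.40 to 0.62. Cd300a was 1617 in AML replicate 6, against 3467 to 4542. Whole marrow replicate 1 was low for Qpctl, at 96.8 against 181 to 184, and for Cd24a, at 19025 against 32416 to 34266. The total of normalized counts was also low in that library, at 10221000 against 17865200 to 19285200 in the rest of whole marrow. Its TMM factor was 0.468 against 0.792 to 0.816, so its low values are not particular to Qpctl and Cd24a.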

How the results depend on the processing

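Of 658 recomputed values of 30 results, 617 were labelled as unchanged and 6 changed sign. Unchanged meant the same direction and call, or a move smaller than the replicate spread. For counts of called genes it meant staying within a fixed factor. Some alternatives could not move an estimate: without any 1 lineage-negative library, Sirpa in AML against whole marrow stayed at 1.03. The 617 are therefore no measure of robustness. Against whole marrow, Sirpb1c and Sirpb1a stayed called under every alternative run, including background subtraction and leaving out AML replicates 5 and 6 together, both chosen after seeing the data. Without single libraries the log2 differences of AML against whole marrow ran from 0.83 to 1.16 for Sirpa, 0.58 to 1.14 for Cd47, 1.87 to 2.37 for Sirpb1c, 1.59 to 2.08 for Sirpb1a and 0.38 to 0.88 for Sirpb1b. Sirpa lost its call with TMM (0.34) and quantile scaling (0.25). Sirpb1b turned to −0.0075 with TMM and −0.0842 with quantile scaling, and Cd47 in lineage-negative against whole marrow, 0.22 to 0.78 without single libraries, turned to −0.11 with TMM. Cd47 passed the size threshold without AML replicates 5 and 6 (1.08), and without AML replicate 6 or whole marrow replicate 2, 3 or 4 alone. It also did so with the replicate block, at 1.12 (adjusted p = 0.0132). No sign was seen that replicate numbers pair the samples, though so few libraries cannot exclude it. Deviations of same-numbered libraries correlated at −0.288 to 0.171 over 12 pairs, and 2 of 12 libraries correlated best with their own number. The causes were not tested.

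Against lineage-negative marrow, pseudocounts of 0.1 and 5 gave 8.81 and 6.63 for Sirpb1a and 10.27 and 8.02 for Sirpb1c, and quantile scaling gave 7.00 for Sirpb1a. Ratios without single libraries ran from −1.54 to −1.36 for Sirpb1b to Sirpb1c, 1.02 to 1.21 for Sirpb1c to Sirpa, −0.39 to −0.16 for Sirpb1a to Sirpb1c, −0.08 to 0.25 for Sirpa to Cd47 and −0.10 to 0.20 for Cd47 to Ptprc. The last turned to −0.08 without AML replicate 4 and −0.10 without whole marrow replicate 1, and Sirpa to Cd47 to −0.0845 without whole marrow replicate 4.

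Called genes in AML against whole marrow numbered 5167 higher and 2132 lower, 896 higher with TMM, 2474 higher with quantile scaling, 11289 lower with no filter and 460 lower with a mean of at least 50, and 3165 to 5832 higher and 1237 to 2128 lower without single libraries, with 3165 higher and 1315 lower without whole marrow replicate 1 and 1244, 1237 and 1271 lower without whole marrow replicates 2, 3 and 4. In the pathway list 5 were higher with TMM and 5 with quantile scaling, and 11 to 20 higher and 1 to 5 lower without single libraries, with 11 higher without whole marrow replicate 1, 2 lower without replicate 3 and 1 lower without replicate 4. AML against lineage-negative marrow gave 3359 higher genes and 2225 with a mean of at least 50. Lineage-negative against whole marrow gave 6266 higher and 3259 lower genes, 2075 higher with TMM, 4133 higher with quantile scaling, 12497 lower with no filter and 1244 lower with a mean of at least 50.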
